A study of Mus musculus with 6 samples.

Results

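Splicing factors of 7 gene families were followed in Neuro2a, a mouse neuroblastoma line, after a hairpin against Fam172a or a control hairpin. The members were taken by gene symbol alone: 11 SR protein genes (Srsf), 20 hnRNP genes (Hnrnp), 9 genes of the SF3A and SF3B complexes, 4 CLK kinases, 3 SRPK kinases, 2 TRA2 genes and 3 U2AF genes, which makes 52 of the 24421 gene symbols in the count table. In the shFam172a group, 3 samples of the wild-type line had received the virus ADV-shFam172a, and in the shCtrl group 3 samples had received the virus ADV-shCtrl. All were harvested after 48 h. A single hairpin construct is named per group. Since no label states that replicates were grown separately, a p-value here reflects the scatter among the sequenced samples and that scatter could be purely technical. FAM172A itself has been reported in mouse to act with AGO2 and the chromatin remodeller CHD7 in alternative splicing.

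Pre-mRNA splicing is carried out by the spliceosome, which is assembled on each intron from small nuclear ribonucleoproteins (snRNPs). U2AF marks the 3′ splice site, and the SF3A and SF3B complexes of the U2 snRNP then hold the branch site. SR proteins bind exons and mostly favour their inclusion, hnRNPs bind RNA of many kinds and often oppose it, and CLK and SRPK kinases phosphorylate the serine and arginine repeats of SR proteins. Many SR and hnRNP genes also tune their own level by splicing in an exon that sends the transcript to decay.

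The knockdown was visible in every library. Fam172a had 9.22, 8.28 and 9.22 CPM in the shFam172a libraries, against 18.6, 19.3 and 19.5 CPM in the shCtrl libraries, which left 46.5% of the mean shCtrl level (log2 fold change -1.10 ± 0.092, SE, n = 3 each, adjusted p = 2.4e-12). CPM is a gene's count scaled to a common library size, with TMM normalization. Log2 fold changes compare shFam172a with shCtrl in edgeR's quasi-likelihood test, and a gene was called where its p, adjusted by Benjamini-Hochberg over all 12820 genes tested, was under 0.05. Gene counts summed to 21690467 to 23409319 per shFam172a library and to 11250312 to 12820531 per shCtrl library, so depth went with the groups. Read pairs that fell in no gene, where intronic pairs go together with intergenic ones, were 17.4% ± 0.388 of all pairs in shFam172a and 16.5% ± 0.0594 in shCtrl (SD, n = 3 each), and their part in the results was not tested. Among libraries of a group, shFam172a replicate 3 stood apart. Over genes that reached a count minimum in each pair, it differed from the other 2 by a chi-square per degree of freedom of 2.84 and 2.71. Other pairs within a group had 1.61 to 1.96 and pairs across groups 12.6 to 17.4. All 10 neuroblast and neuron markers were detected, with a summed level of 1894 to 1916 CPM in shFam172a and 1841 to 1855 CPM in shCtrl. The 5 macrophage markers summed to 1.11 to 1.15 CPM in shFam172a and 0.234 to 0.946 CPM in shCtrl with Ptprc at 0 in all libraries, and the 5 glial markers to 22.4 to 26.5 CPM in shFam172a and 22.4 to 23.04 CPM in shCtrl with Aqp4 at 0. The 5 fibroblast markers summed to 6.91 to 8.59 CPM in shFam172a and 6.58 to 8.77 CPM in shCtrl, and the 5 of endothelium and epithelium to 13.1 to 13.97 CPM in shFam172a and 12.4 to 13.3 CPM in shCtrl.

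Splicing factor genes differed by small amounts, and more of them were lower than higher in shFam172a. Of the 50 members tested, 20 fell, 8 rose and 22 were not called, and without shFam172a replicate 3 it was 20 and 6. The background was 18.6% of all tested genes lower, 17.5% higher and 36.1% called in either direction, where the members had 40.0%, 16.0% and 56.0%. The members are abundant, with a median of 223.6 CPM over all libraries where all tested genes had 32.8 CPM, and abundant genes were called more often: among the 2655 genes of at least 100 CPM, 28.4% were lower, 28.0% higher and 56.4% called. Of the 37 members in that range, 16 fell, 7 rose and 14 were not called. Their share called is near that background, and their split by direction is a description that was not tested. The median log2 fold change was -0.057 over the members and -0.00030 over all tested genes. The 3 shFam172a and 3 shCtrl values did not overlap for 32 members, which is 64.0% of members where 46.0% of all tested genes did not overlap. Of the 32, 22 had shFam172a below, and 23.5% of all tested genes did. The share without overlap was not computed for genes of at least 100 CPM, so no comparison at like abundance is given. Only Hnrnph2 was called with at least a 1.25-fold difference, as 9.69% of all tested genes were, and 0 members were called at 1.5-fold, against 2.73% of genes. In bulk RNA, fewer cells of a kind and less RNA per cell cannot be told apart.

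**Figure D1:**
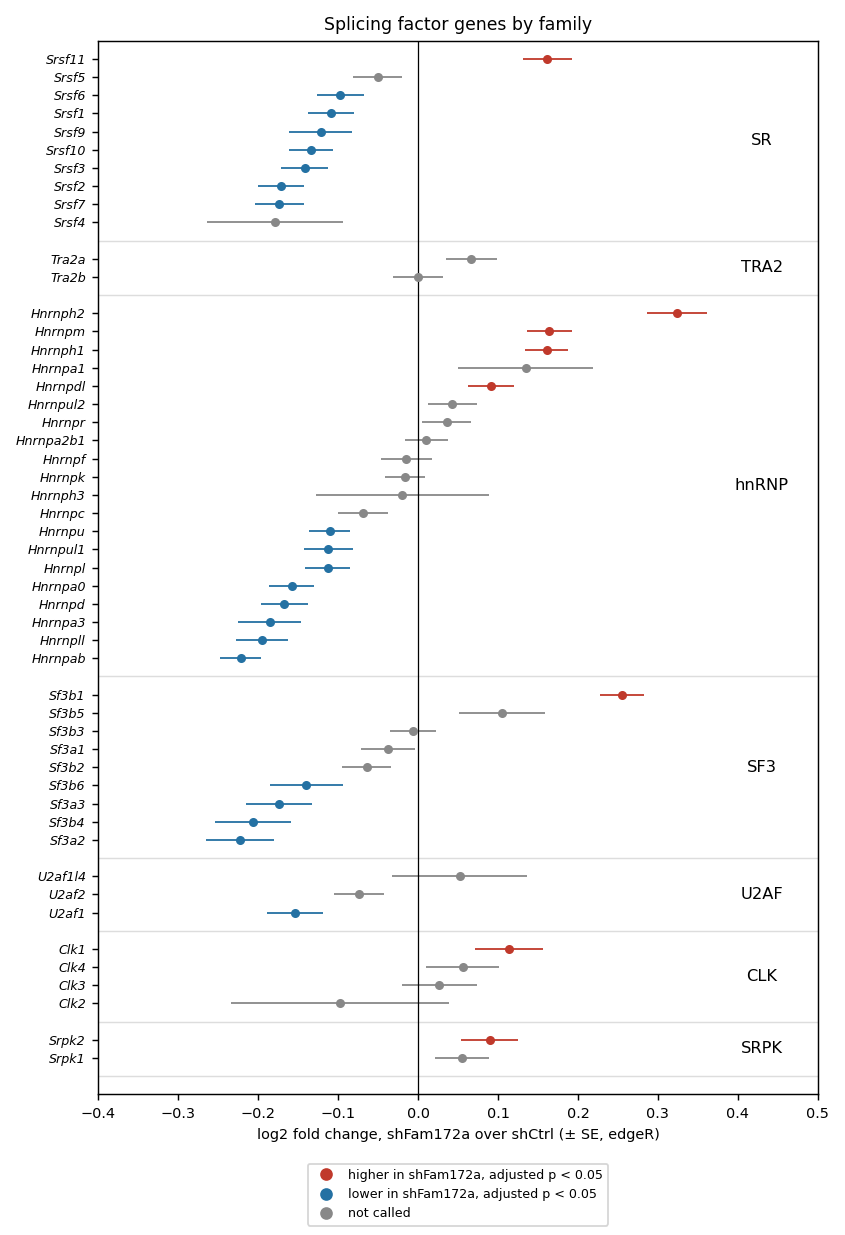
Log2 fold change (shFam172a over shCtrl) with its SE for the 50 splicing factor genes tested, in rows by family, with colour for the call at an adjusted p under 0.05. Most SR genes lie left of 0 with Srsf11 to the right, hnRNP genes spread to both sides from -0.22 to 0.32, and Sf3b1 stands apart from the other SF3 genes.

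Most SR protein genes fell. Of 10 tested, 7 fell, Srsf11 rose, and Srsf4 and Srsf5 were not called, with a median log2 fold change of -0.13. Beside these 70% lower, all tested genes had 18.6% lower and genes of at least 100 CPM 28.4%. The difference from these shares was not tested. Summed over the family, SR genes had 2993, 2965 and 3059 CPM in the shFam172a libraries, against 3201, 3247 and 3244 CPM in the shCtrl libraries. All shFam172a sums lay below all shCtrl sums, at 93.04% of the shCtrl mean.

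Srsf7, an SR protein with a zinc knuckle that also works in mRNA export, had 218, 214 and 227 CPM in the shFam172a libraries, against 247, 250.4 and 246 CPM in the shCtrl libraries (log2 fold change -0.17 ± 0.031, adjusted p = 2.2e-05). Srsf2, known as SC35 and present in nuclear speckles, had 397, 401 and 421 CPM in the shFam172a libraries, against 464, 451 and 459 CPM in the shCtrl libraries (-0.17 ± 0.029, adjusted p = 8.2e-06). Srsf3, the smallest SR protein, had 369.9, 373 and 391.5 CPM in the shFam172a libraries, against 406, 422 and 424 CPM in the shCtrl libraries (-0.14 ± 0.029, adjusted p = 0.00017). In these 3 genes every shFam172a library was below every shCtrl library, and shFam172a replicate 3 was the nearest to shCtrl. A correction for GC content and transcript length left Srsf7 at -0.11 with adjusted p = 0.0014 and Srsf3 at -0.083 with adjusted p = 0.0099, both smaller by over 1.5 times. Srsf2 shares exon sequence with Mettl23 and Mfsd11 on the opposite strand, and Srsf3 has near-identical copies, so both values are uncertain. Srsf10, which has 2 near-identical pseudogenes and acts as a repressor when dephosphorylated, had 467, 454 and 473 CPM in the shFam172a libraries, against 507, 517 and 505 CPM in the shCtrl libraries (-0.13 ± 0.027, adjusted p = 0.00016). Srsf9 had 104, 104 and 95.7 CPM in the shFam172a libraries, against 109, 110.1 and 110.4 CPM in the shCtrl libraries (-0.12 ± 0.039, adjusted p = 0.014), and without shFam172a replicate 3, its lowest library, it was at -0.084 with adjusted p = 0.11. Srsf1, the founding member and the one with the highest CPM of the family, had 553, 528 and 568 CPM in the shFam172a libraries, against 591, 604 and 582 CPM in the shCtrl libraries (-0.11 ± 0.029, adjusted p = 0.0026), and an exon of Gm11508 lies on its other strand. The groups did not overlap in these genes either, but the call of Srsf1 was lost without shFam172a replicate 2, at -0.078 with adjusted p = 0.056. Srsf6 was the remaining gene that fell (-0.097 ± 0.030, adjusted p = 0.0086), and it stood at -0.076 with adjusted p = 0.074 without shFam172a replicate 1 and at -0.085 with adjusted p = 0.059 without shCtrl replicate 3.

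Srsf11 moved the other way. This SR protein, which in mouse neuronal cells is known to help the inclusion of microexons, had 245, 239.9 and 237 CPM in the shFam172a libraries, against 213, 219 and 213 CPM in the shCtrl libraries (0.16 ± 0.030, adjusted p = 5.0e-05), with all shFam172a libraries above all shCtrl libraries. The ratio of Srsf11 to Srsf2 counts, in which scaling between libraries cancels, was 0.617, 0.599 and 0.562 in shFam172a and 0.459, 0.486 and 0.463 in shCtrl. It was formed after the values of both genes were seen. Srsf5 averaged 345 ± 3.73 CPM in shFam172a and 357 ± 17.4 CPM in shCtrl (-0.050 ± 0.031, adjusted p = 0.21). Left without shCtrl replicate 1, Srsf5 passed at -0.081 with adjusted p = 0.049. Srsf5 has 1 near-identical pseudogene that covers 51.7% of its transcript. Srsf4 was low, at 18.1 ± 2.36 CPM in shFam172a and 20.6 ± 0.644 CPM in shCtrl (-0.18 ± 0.085, adjusted p = 0.098), and passed at -0.28 with adjusted p = 0.011 without shFam172a replicate 2. It also passed after the GC and length correction, at -0.21 with adjusted p = 0.049, and without shFam172a replicate 1 it stood at -0.095 with adjusted p = 0.43. Srsf4 shares exon sequence with Gm12992 on the opposite strand. Srsf12 was under the count filter, with 12 counts in all 3 shFam172a libraries and 4 in all 3 shCtrl libraries, or 0.178 CPM (95% exact Poisson interval 0.0920 to 0.311) and 0.112 CPM (0.0305 to 0.287). These intervals overlap and cover counting error only.

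Both TRA2 genes, whose products are SR-like activators of exon inclusion, were near their shCtrl level. Tra2a had 221, 218 and 226 CPM in the shFam172a libraries, against 202, 216 and 217 CPM in the shCtrl libraries, so that its groups did not overlap, and it was not called (0.066 ± 0.032, adjusted p = 0.10). After the GC and length correction Tra2a passed, at 0.11 with adjusted p = 0.0022. Tra2b had 242, 236 and 246 CPM in the shFam172a libraries, against 240.2, 250.2 and 232 CPM in the shCtrl libraries (-0.00037 ± 0.031, adjusted p = 0.995), with the groups mixed. A 1.25-fold difference lies outside 2 SE of its estimate, and Tra2b has 4 near-identical pseudogenes.

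The promoters of 4 called members are shown because these members carry the directions described here and the window before their start holds no annotated exon beyond 5 bases. Each is 250 bases before the RefSeq start in GRCm38.p6, 5′ to 3′ on the strand of the gene: Sf3b1, which rose, at chr1:55027479-55027728 on the minus strand, and Hnrnpab, Hnrnpa0 and Srsf9, which fell, at chr11:51606882-51607131 (minus), chr13:58128557-58128806 (minus) and chr5:115326927-115327176 (plus). Capitals mark ACGTG, the core that hypoxia-inducible factors bind, CACGTG, the E-box of MYC, CCAAT and the GC box GGGCGG, on either strand, and CACGTG contains ACGTG.
Sf3b1: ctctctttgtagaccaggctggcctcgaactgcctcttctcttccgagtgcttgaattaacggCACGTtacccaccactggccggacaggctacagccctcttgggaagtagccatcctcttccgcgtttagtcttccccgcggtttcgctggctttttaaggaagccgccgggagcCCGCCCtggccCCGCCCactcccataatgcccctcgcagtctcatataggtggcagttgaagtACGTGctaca
Hnrnpab: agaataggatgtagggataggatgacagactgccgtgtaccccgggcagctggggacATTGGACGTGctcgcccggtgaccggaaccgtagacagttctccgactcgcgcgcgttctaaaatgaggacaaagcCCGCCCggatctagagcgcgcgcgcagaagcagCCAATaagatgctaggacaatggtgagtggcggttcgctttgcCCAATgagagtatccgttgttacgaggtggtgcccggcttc
Hnrnpa0: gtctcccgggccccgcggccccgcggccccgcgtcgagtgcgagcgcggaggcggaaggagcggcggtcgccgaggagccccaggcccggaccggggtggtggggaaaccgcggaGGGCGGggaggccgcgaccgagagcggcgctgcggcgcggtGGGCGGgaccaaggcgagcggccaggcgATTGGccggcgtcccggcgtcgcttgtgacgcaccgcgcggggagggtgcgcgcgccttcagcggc
Srsf9: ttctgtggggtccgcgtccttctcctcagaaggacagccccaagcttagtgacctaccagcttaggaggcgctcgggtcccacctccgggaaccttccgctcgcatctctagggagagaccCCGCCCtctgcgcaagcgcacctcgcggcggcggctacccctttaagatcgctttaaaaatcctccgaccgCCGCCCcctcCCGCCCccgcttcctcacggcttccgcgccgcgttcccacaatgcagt
The window of Sf3b1 held 2 ACGTG and 2 GC boxes, that of Hnrnpab 1 ACGTG, 3 CCAAT and 1 GC box, that of Hnrnpa0 1 CCAAT and 2 GC boxes, and that of Srsf9 3 GC boxes. RefSeq promoters were matched for 46 of the 52 members, 62 windows in all, some genes having several. GGGCGG was in 74.2% of these windows, in 57.3% of the 12459 windows of tested genes and in 32.7% of all 32851 windows. CCAAT was in 45.2%, 35.4% and 33.8%, ACGTG in 27.4%, 21.4% and 16.6%, and CACGTG in 6.45%, 8.14% and 6.02%, in the same order. By direction, ACGTG was in 1 of 14 windows of members that rose and 4 of 19 of members that fell, and GGGCGG in 10 of 14 and 17 of 19. The 14 windows came from 7 genes and the 19 from 18 genes, so several windows of a gene were counted separately. A match describes the letters of the window and is no measure of binding.

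The hnRNP genes split. Of 20 tested, 8 fell, 4 rose and 8 were not called, with a median log2 fold change of -0.018. That is 40.0% lower and 20.0% higher. All tested genes had 18.6% lower and 17.5% higher, and genes of at least 100 CPM 28.4% and 28.0%. The split was not tested. The summed level of the hnRNP genes was 9062, 8951 and 9141 CPM in the shFam172a libraries, against 9120, 9420 and 9313 CPM in the shCtrl libraries, and these sums overlap.

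Hnrnph2 had the largest rise, and Hnrnph1 rose with it, while Hnrnpf and Hnrnph3 of the same H/F group, whose proteins mostly bind runs of G, were not called. Hnrnph2, on chromosome X at 134601179 to 134607060 of GRCm38, had 152, 141 and 149.7 CPM in the shFam172a libraries, against 115, 123 and 116 CPM in the shCtrl libraries. Its shFam172a libraries all lay above its shCtrl libraries, a 1.25-fold difference and the highest among the members (0.32 ± 0.037, adjusted p = 6.2e-09). Hnrnph1, its more abundant paralog, had 926, 872 and 909 CPM in the shFam172a libraries, against 805, 827 and 790.1 CPM in the shCtrl libraries (0.16 ± 0.027, adjusted p = 1.1e-05). Hnrnpf, the third G-run binder of this group, had 319, 307 and 336 CPM in the shFam172a libraries, against 322, 333 and 317 CPM in the shCtrl libraries (-0.015 ± 0.032, adjusted p = 0.75), with the groups mixed. The ratio of Hnrnph2 to Hnrnph1 counts was 0.164, 0.162 and 0.165 in shFam172a and 0.143, 0.148 and 0.146 in shCtrl, and that of Hnrnph1 to Hnrnpf was 2.90, 2.84 and 2.71 in shFam172a and 2.498, 2.48 and 2.496 in shCtrl. Both ratios were formed after the values were seen, and in both all shFam172a libraries were above. Hnrnph2 has 1 near-identical pseudogene and Hnrnpf has 8 near-identical genes, so both counts are uncertain.

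Hnrnpm, a splicing regulator that binds GU-rich RNA, had 399, 387 and 393 CPM in the shFam172a libraries, against 347, 355 and 349.9 CPM in the shCtrl libraries (0.16 ± 0.028, adjusted p = 1.3e-05). Its groups did not overlap, and it shares exon sequence with March2 on the same strand. Hnrnpdl, the paralog of Hnrnpd, had 378, 387 and 400.2 CPM in the shFam172a libraries, against 358, 364 and 371 CPM in the shCtrl libraries (0.091 ± 0.029, adjusted p = 0.012). Its groups were apart by a narrow margin, and the call was lost without shFam172a replicate 3, at 0.070 with adjusted p = 0.069, and when all libraries were thinned to the smallest, at 0.072 with adjusted p = 0.066. Hnrnpd, also called AUF1, which binds AU-rich elements in short-lived mRNAs, went the other way with 279, 273 and 271 CPM in the shFam172a libraries, against 300.4, 307 and 318 CPM in the shCtrl libraries (-0.17 ± 0.030, adjusted p = 2.1e-05), all shFam172a libraries lying below, and overlaps Gm17092 on the opposite strand.

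Among the genes that fell, Hnrnpab, also known as CArG-binding factor A, had 979, 987 and 972 CPM in the shFam172a libraries, against 1119, 1151 and 1159 CPM in the shCtrl libraries. It was the largest fall in the family, to 85.7% of the shCtrl mean (-0.22 ± 0.025, adjusted p = 5.1e-09), and it shares exon sequence with Phykpl on the opposite strand. Hnrnpll, known in mouse for switching CD45 splicing in lymphocytes, had 167, 165 and 159 CPM in the shFam172a libraries, against 186, 191 and 184 CPM in the shCtrl libraries (-0.20 ± 0.032, adjusted p = 7.2e-06). Hnrnpa3 had 106, 102 and 112 CPM in the shFam172a libraries, against 122, 124 and 116 CPM in the shCtrl libraries (-0.19 ± 0.040, adjusted p = 0.00028) and has 27 near-identical pseudogenes, which makes its count uncertain. Hnrnpa0, an intronless gene of the same A/B group, had 353, 353 and 358 CPM in the shFam172a libraries, against 393, 399.5 and 394 CPM in the shCtrl libraries (-0.16 ± 0.028, adjusted p = 1.7e-05). In all of these every shFam172a library was below every shCtrl library. Hnrnpu, the scaffold attachment factor and the member with the highest CPM, had 1268, 1256 and 1321 CPM in the shFam172a libraries, against 1364, 1401 and 1386 CPM in the shCtrl libraries (-0.11 ± 0.026, adjusted p = 0.00072) without overlap of the groups, and shares exon sequence with Cox20 on the opposite strand. Hnrnpl, a binder of CA repeats that overlaps Gm44702, was at -0.11 ± 0.028 (adjusted p = 0.0015), and Hnrnpul1 was at -0.11 ± 0.031 (adjusted p = 0.0037) and at -0.088 with adjusted p = 0.055 without shCtrl replicate 3.

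The other 8 hnRNP genes, Hnrnpf among them, were not called. Hnrnpa2b1 averaged 1173 ± 13.4 CPM in shFam172a and 1164 ± 40.9 CPM in shCtrl (0.010 ± 0.027, adjusted p = 0.80), and Hnrnpk, a binder of C-rich RNA, 986 ± 11.2 CPM in shFam172a and 997 ± 11.96 CPM in shCtrl (-0.016 ± 0.025, adjusted p = 0.66). These SEs are small, so that differences of 1.25-fold lie outside 2 SE of both estimates. Hnrnpk has 2 near-identical pseudogenes that cover 46.4% of its transcript, and it shares exon sequence with Rmi1 on the opposite strand. Its count is therefore uncertain. After the GC and length correction Hnrnpa2b1 passed, at 0.058 with adjusted p = 0.039. Hnrnpc, a binder of U tracts, was at -0.069 ± 0.031 (adjusted p = 0.081), and passed at -0.10 with adjusted p = 0.021 without shCtrl replicate 3 and at -0.078 with adjusted p = 0.047 with library totals as the sole scaling. Hnrnpr and Hnrnpul2 were at 0.036 ± 0.031 and 0.043 ± 0.031, and Hnrnpr passed after the correction together with a replicate block, at 0.066 with adjusted p = 0.045. Hnrnpa1 and Hnrnph3 had few counts, with means of 21.1 ± 1.88 CPM in shFam172a and 19.2 ± 2.34 CPM in shCtrl for Hnrnpa1 (0.13 ± 0.084, adjusted p = 0.22) and 9.70 ± 0.702 CPM in shFam172a and 9.82 ± 0.325 CPM in shCtrl for Hnrnph3 (-0.020 ± 0.11, adjusted p = 0.91). Hnrnpa1 has 9 near-identical pseudogenes that cover 58.5% of its transcript, and pairs with several alignments were not assigned to genes, so its count is uncertain. Hnrnpc and Hnrnpr each have 1 near-identical pseudogene, over 31.8% and 8.11% of the transcript. Hnrnph3 shares exon sequence with Rufy2 and Hnrnpr with Gm27022 on the opposite strand, and Hnrnpul2 with AC129217.1 on the same strand.

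**Figure D2:**
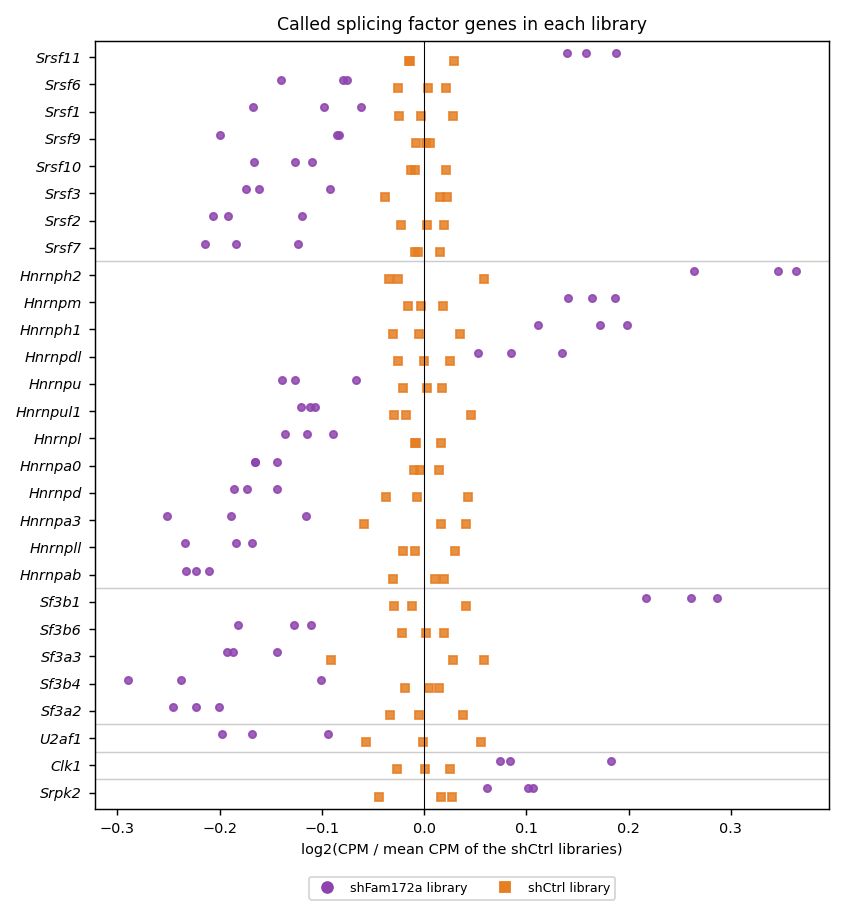
The 28 called splicing factor genes in each of the 6 libraries, as log2 of CPM over the mean of the shCtrl libraries, with circles for shFam172a and squares for shCtrl and lines between families. In every row shown the circles and squares do not overlap, and shFam172a circles lie between about -0.3 and 0.4.

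The subunits of SF3A and SF3B did not move together. Sf3b1, the large scaffold that closes around the branch site, rose, while 4 of the other 8 subunit genes fell and 4 were not called. Of all 9, 44.4% were thus lower, where 18.6% of all tested genes were. The share lower was 21.6% over genes of 10 to 100 CPM and 28.4% over genes of at least 100 CPM. The family's share was not tested. Sf3b1, on chromosome 1 at 54985169 to 55027481 of GRCm38, had 656, 625 and 644 CPM in the shFam172a libraries, against 553, 533 and 526 CPM in the shCtrl libraries, a 1.19-fold difference with no overlap (0.25 ± 0.028, adjusted p = 2.0e-09). It kept its call under all 16 alternatives, with log2 fold changes from 0.24 to 0.28.

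Sf3a2, an SF3A subunit that contacts the pre-mRNA near the branch site, had 70.3, 68.2 and 69.3 CPM in the shFam172a libraries, against 83.0, 79.0 and 80.5 CPM in the shCtrl libraries (-0.22 ± 0.042, adjusted p = 6.3e-05). Sf3a3 had 87.8, 90.5 and 87.5 CPM in the shFam172a libraries, against 93.9, 102 and 104 CPM in the shCtrl libraries (-0.17 ± 0.041, adjusted p = 0.00091). Sf3a1, the third SF3A subunit, had 156, 156 and 151 CPM in the shFam172a libraries, against 154, 158 and 163 CPM in the shCtrl libraries and was not called (-0.038 ± 0.034, adjusted p = 0.40). Thus Sf3a2 and Sf3a3 were lower in every shFam172a library, and the libraries of Sf3a1 were mixed. Sf3a2 shares exon sequence with Plekhj1 on the opposite strand.

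In SF3B, Sf3b4, which binds the pre-mRNA beside the branch site, had 60.1, 68.5 and 62.4 CPM in the shFam172a libraries, against 73.7, 74.2 and 72.6 CPM in the shCtrl libraries (-0.21 ± 0.048, adjusted p = 0.00069). Sf3b6, also known as p14, which lies near the branch site adenosine, had 61.2, 58.2 and 60.5 CPM in the shFam172a libraries, against 66.2, 65.1 and 67.0 CPM in the shCtrl libraries (-0.14 ± 0.045, adjusted p = 0.014). Both were below shCtrl in all libraries, and Sf3b4 overlaps Gm17690. Sf3b4 also has 1 near-identical pseudogene that covers 66.6% of its transcript, so its count is uncertain. The call of Sf3b6 held in 10 of 16 alternatives. Among the losses was the fit without shFam172a replicate 2, at -0.12 with adjusted p = 0.081. Further losses came without shCtrl replicate 3, at -0.13 with adjusted p = 0.061, and in DESeq2. The GC and length correction also ended the call, at -0.10 with adjusted p = 0.075. Sf3b2 had 189, 191 and 191 CPM in the shFam172a libraries, against 199, 200.2 and 198 CPM in the shCtrl libraries, without overlap but not called (-0.064 ± 0.031, adjusted p = 0.098); after the GC and length correction it was at -0.095 with adjusted p = 0.0071, as Sf3a1 was at -0.079 with adjusted p = 0.048. Sf3b3, a large propeller protein, had 530.1, 541 and 562 CPM in the shFam172a libraries, against 530.0, 555 and 555 CPM in the shCtrl libraries (-0.0067 ± 0.028, adjusted p = 0.88). Sf3b5, the smallest subunit, had 54.4, 56.0 and 52.2 CPM in the shFam172a libraries, against 55.6, 47.3 and 48.5 CPM in the shCtrl libraries (0.10 ± 0.054, adjusted p = 0.13). Both had mixed libraries, and Sf3b5 passed at 0.18 with adjusted p = 0.012 once shCtrl replicate 1, its highest shCtrl library, was left out. Sf3b2 shares exon sequence with AC125059.3 on the opposite strand. Phf5a, the remaining SF3B subunit, which the symbol rule does not take in, fell (-0.18 ± 0.040, adjusted p = 0.00053).

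Set within each library against Sf3a2, Sf3b3 and Sf3b4, the 3 partners taken, Sf3b1 was higher in all shFam172a libraries than in any shCtrl library. The ratio of Sf3b1 to Sf3a2 counts was 9.32, 9.16 and 9.295 in shFam172a and 6.66, 6.75 and 6.54 in shCtrl. The ratio of Sf3b1 to Sf3b3, the partner of closest abundance, was 1.24, 1.16 and 1.15 in shFam172a and 1.04, 0.960 and 0.948 in shCtrl. Exons of Sf3b3 overlap Cog4 on the opposite strand and Gm22193 and Snord111 on the same strand. The ratio of Sf3b1 to Sf3b4 averaged 10.1 ± 0.912 in shFam172a and 7.31 ± 0.169 in shCtrl. The ratios were formed after the values were seen, and no scaling factor enters them. Across the 9 SF3 genes the log2 fold change went up with transcript length (Pearson r = 0.798, Spearman rho = 0.767) and down with GC content (r = -0.73), a description over 9 genes of the same 6 libraries. Sf3b1 is the longest of them at 6195 bases. Over all 12754 tested genes with annotation the correlation with length was r = 0.0497 (Spearman rho = 0.118), and it was r = 0.201 over the 50 members. With GC content it was r = 0.112 (Spearman rho = 0.132) over all these genes, opposite in sign to the SF3 genes, and r = -0.359 over the members.

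**Figure D3:**
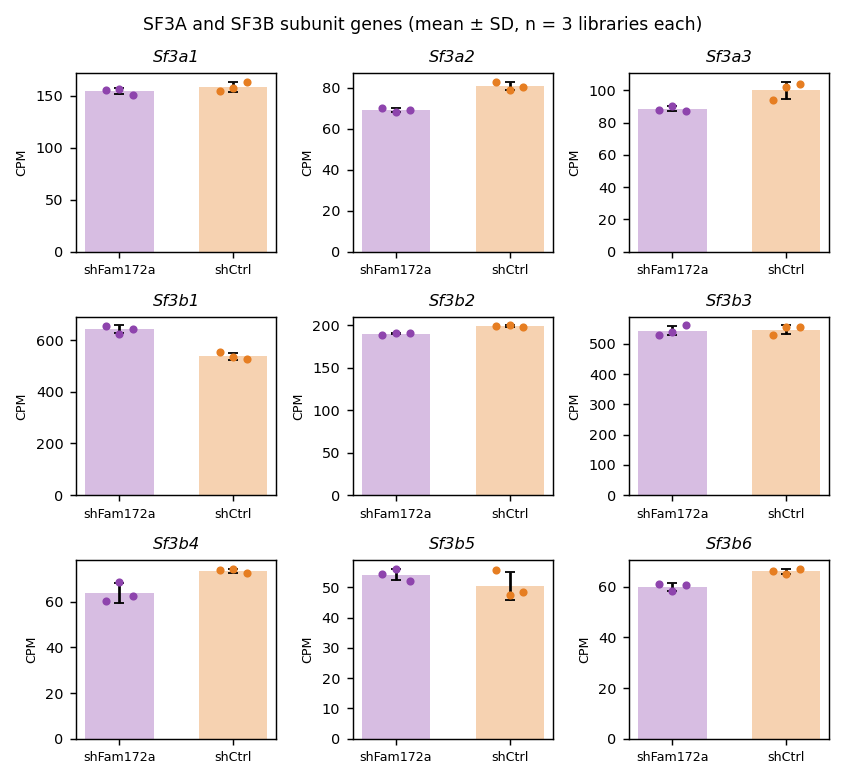
CPM of the 9 SF3A and SF3B subunit genes in the shFam172a and shCtrl libraries, with bars for the mean, error bars for the SD (n = 3 each) and points for single libraries, each panel on its own axis from 0. Sf3b1 is higher in shFam172a, and Sf3a2, Sf3a3, Sf3b4 and Sf3b6 are lower.

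**Figure D4:**
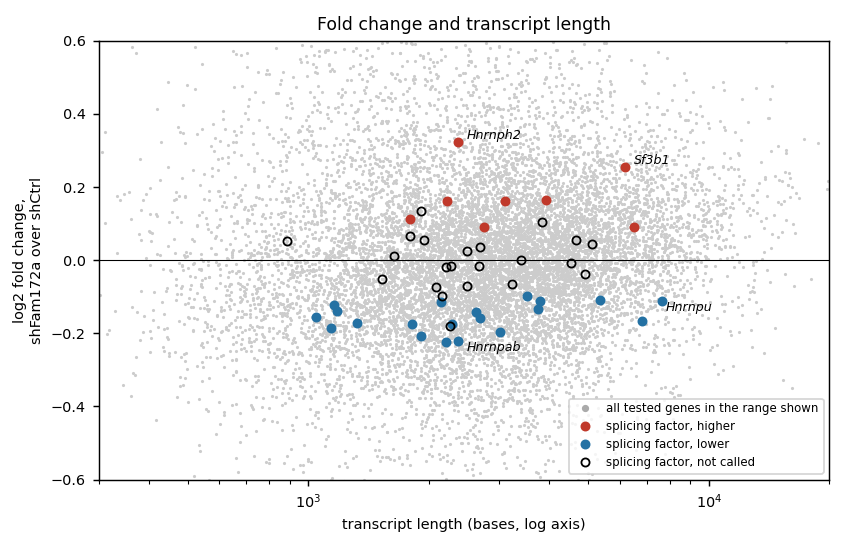
Log2 fold change (shFam172a over shCtrl) against transcript length on a log axis, for tested genes within 0.6 on the log2 scale in grey and for splicing factor genes in colour by call. Genes that rose and genes that fell are found over most of the length range of the members, with Sf3b1 at the long end and Hnrnpu longer still among those that fell.

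The U2AF genes gave a single call. U2af1, the small subunit that reads the AG at the 3′ splice site, had 157, 149 and 146 CPM in the shFam172a libraries, against 161, 174 and 167 CPM in the shCtrl libraries (-0.15 ± 0.035, adjusted p = 0.00065), with no overlap. U2af1 has 3 near-identical pseudogenes that cover 74.7% of its transcript, so its count is uncertain. U2af2, the large subunit that binds the polypyrimidine tract, had 210.1, 213 and 218 CPM in the shFam172a libraries, against 218, 226 and 231 CPM in the shCtrl libraries (-0.074 ± 0.031, adjusted p = 0.059). Its groups were just apart, and U2af2 passed without shFam172a replicate 3, at -0.088 with adjusted p = 0.034, without shCtrl replicate 1, at -0.095 with adjusted p = 0.029, with library totals as the sole scaling, at -0.083 with adjusted p = 0.035, and after the GC and length correction, at -0.096 with adjusted p = 0.0083. U2af1l4, a paralog of the small subunit, had 19.6, 22.4 and 20.3 CPM in the shFam172a libraries, against 18.8, 23.2 and 17.9 CPM in the shCtrl libraries (0.052 ± 0.084, adjusted p = 0.67) and mixed libraries. U2af2 has 1 near-identical pseudogene that covers 64.8% of its transcript. U2af1l4 shares exon sequence with Gm49396 on the same strand and Psenen on the opposite strand.

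The kinases of SR proteins were close to shCtrl, and the 2 calls among them were weak. Clk1 had 91.7, 85.6 and 85.1 CPM in the shFam172a libraries, against 82.2, 80.9 and 79.3 CPM in the shCtrl libraries (0.11 ± 0.042, adjusted p = 0.033). All shFam172a libraries were above. The call was lost in DESeq2, at 0.12 with adjusted p = 0.099, and without shFam172a replicate 1, at 0.080 with adjusted p = 0.19, without shCtrl replicate 2, at 0.11 with adjusted p = 0.082, and without shCtrl replicate 3, at 0.10 with adjusted p = 0.11. After the GC and length correction Clk1 was higher by over 1.5 times, at 0.18 with adjusted p = 0.00079. Clk4, its closest paralog, had 72.6, 71.6 and 72.2 CPM in the shFam172a libraries, against 74.4, 68.1 and 65.7 CPM in the shCtrl libraries (0.056 ± 0.046, adjusted p = 0.36). Clk3 had 56.7, 58.8 and 58.6 CPM in the shFam172a libraries, against 57.6, 57.4 and 55.8 CPM in the shCtrl libraries (0.026 ± 0.047, adjusted p = 0.70), and Clk2, which was low, had 6.16, 6.13 and 7.06 CPM in the shFam172a libraries, against 8.23, 6.70 and 5.76 CPM in the shCtrl libraries (-0.097 ± 0.14, adjusted p = 0.62). In these 3 the groups were mixed. Clk3 shares exon sequence with Edc3 on the opposite strand, and Clk4 with Gm25082 on the same strand.

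Srpk2, a kinase that in neurons and other cells phosphorylates SR proteins in the cytoplasm, had 133, 129 and 133 CPM in the shFam172a libraries, against 120.1, 125 and 126 CPM in the shCtrl libraries (0.090 ± 0.036, adjusted p = 0.046). It shares exon sequence with Kmt2e on the opposite strand. Although its groups did not overlap, it kept its call in 4 of 16 alternatives, and leaving out any library other than shFam172a replicate 2 ended it, with adjusted p from 0.052 to 0.19. Srpk2 stood at 0.083 and 0.084 without shFam172a replicates 1 and 3, and at 0.069, 0.099 and 0.10 without shCtrl replicates 1, 2 and 3. Srpk1, the ubiquitous kinase of the pair, had 148, 151 and 152 CPM in the shFam172a libraries, against 145, 143 and 147 CPM in the shCtrl libraries, with shFam172a above throughout, and was not called (0.055 ± 0.033, adjusted p = 0.21). Srpk3, a muscle kinase, was under the filter with 10 counts over the shFam172a libraries and 4 over the shCtrl libraries, or 0.148 CPM (95% exact Poisson interval 0.0712 to 0.273) and 0.112 CPM (0.0305 to 0.287).

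Per kilobase of transcript, the families span a wide range of levels. Here CPM was divided by the length of the principal coding transcript in GENCODE, so that genes can be set beside each other. Hnrnpa2b1 was the highest of the members at 716 ± 8.20 in shFam172a and 711 ± 24.9 in shCtrl, followed in shCtrl by Hnrnpab at 413 ± 3.22 in shFam172a and 482 ± 8.91 in shCtrl. Hnrnpk at 368 ± 4.19 in shFam172a and 372 ± 4.47 in shCtrl and Hnrnph1 at 406 ± 12.5 in shFam172a and 363 ± 8.31 in shCtrl changed places between the groups by their means. Srsf2 led the SR genes at 306 ± 9.92 in shFam172a and 345 ± 4.96 in shCtrl, and Srsf5 followed at 226 ± 2.44 in shFam172a and 234 ± 11.4 in shCtrl. In SF3, Sf3b3 stood at 120.3 ± 3.56 in shFam172a and 121 ± 3.20 in shCtrl and Sf3b1 at 104 ± 2.52 in shFam172a and 86.8 ± 2.25 in shCtrl, while Sf3a1 was at 31.3 ± 0.579 in shFam172a and 32.2 ± 0.965 in shCtrl. Among the kinases, Clk1 was at 48.7 ± 2.06 in shFam172a and 45.0 ± 0.817 in shCtrl and Srpk2 at 20.3 ± 0.345 in shFam172a and 19.1 ± 0.507 in shCtrl CPM per kilobase. All values are mean ± SD with n = 3, and the lengths are those of GENCODE M21, since the authors' annotation is not known.

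**Figure D5:**
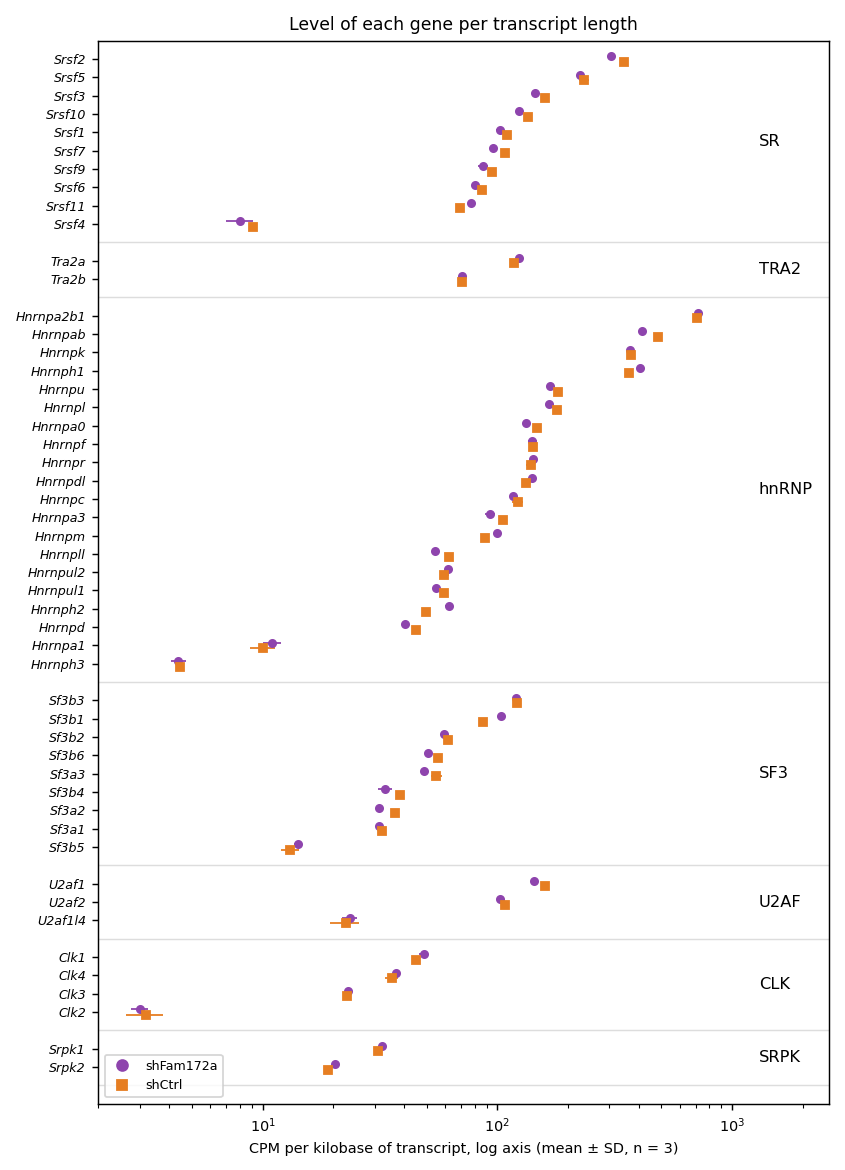
Level of each splicing factor gene as CPM per kilobase of principal transcript on a log axis, in shFam172a (circles) and shCtrl (squares), mean ± SD with n = 3 libraries, in rows by family and by falling shCtrl level. Differences between genes span over 2 decades, while each gene's circle and square lie close together.

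Sharing of sequence with other genes limits some of these counts. Of the 28 called members, 11 share exon sequence with another annotated gene and 6 have a copy elsewhere at 95% identity or more over at least 200 bases. The 13 with neither held 5 of the rises and 8 of the falls. Splicing factor genes also make many transcript forms: 62.0% of the 50 tested members have an annotated transcript of the nonsense-mediated decay class and 80.0% one with a retained intron, where all tested genes have 27.7% and 57.0%, and 9 of 10 SR genes have the first kind. Gene counts add all forms of a gene, so these data do not show whether productive and unproductive transcripts moved apart.

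Among other genes of the splicing machinery, more fell than rose. Of 133 tested genes in 9 lists drawn up for this pathway, 39 fell, 22 rose and 72 were not called, which is 29.3% lower and 16.5% higher, with a median log2 fold change of -0.029. Over all tested genes 18.6% were lower and 17.5% higher, and over genes of at least 100 CPM 28.4% were lower and 28.0% higher. Many genes of these lists were below 100 CPM, and over genes of 10 to 100 CPM 21.6% were lower and 17.6% higher. The share lower in the lists was thus near that of genes of at least 100 CPM and above that of genes of 10 to 100 CPM. The share higher was below both. The counts per list below are descriptions that were not tested. Small ring proteins of the snRNPs were among the falls of largest size. Of 6 tested Sm core genes 4 fell and 0 rose, with Snrpd3 at -0.29 ± 0.035, Snrpd1 at -0.32 ± 0.041, Snrpg at -0.24 ± 0.047 and Snrpe at -0.16 ± 0.044. Snrpd2 and Snrpb were not called, at -0.035 ± 0.046 and -0.0088 ± 0.033, and were named after their values were seen. Snrpf and Snrpn were under the count filter. Of 23 tested tri-snRNP genes 10 fell and 2 rose. The LSM genes, whose proteins form rings that include the one on U6 snRNA, gave 4 falls among 7 tested. Lsm3 averaged 56.6 ± 2.65 CPM in shFam172a and 76.0 ± 4.45 CPM in shCtrl (-0.42 ± 0.048, adjusted p = 5.2e-09), and Lsm8, Lsm5 and Lsm2 were at -0.34 ± 0.051, -0.32 ± 0.054 and -0.33 ± 0.061. Lsm7, Lsm6 and Lsm4 were not called, at -0.11 ± 0.050, -0.058 ± 0.046 and -0.0062 ± 0.042, and were named after their values were seen. Snrpd3 and Lsm3 share exon sequence with another gene.

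In the list of other U2 snRNP and branch site genes, 5 of 12 fell and 2 rose. Snrpa1, the U2-A′ protein, was at -0.30 ± 0.041, Sf1, the branch point binding protein, at -0.21 ± 0.029 and Phf5a at -0.18 ± 0.040, while the helicase Ddx46, the mammalian Prp5, averaged 198 ± 1.42 CPM in shFam172a and 165 ± 5.05 CPM in shCtrl (0.26 ± 0.032, adjusted p = 2.6e-08). In U1 snRNP and LUC7 genes, 1 of 8 rose and 1 fell: Luc7l3 was at 0.34 ± 0.032 (adjusted p = 7.8e-11) and Snrpa, the U1-A protein, at -0.27 ± 0.047 (adjusted p = 1.9e-05). In the Prp19 complex and the catalytic steps, 6 of 23 fell and 2 rose, with Cwc27 at -0.21 ± 0.044, Bcas2 at -0.19 ± 0.043, Bud31 at -0.20 ± 0.046 and the second-step factor Slu7 at 0.15 ± 0.045. The share lower was 41.7%, 12.5% and 26.1% in these lists, in the order given, and the share higher 16.7%, 12.5% and 8.70%. Genes of 10 to 100 CPM had 21.6% lower and 17.6% higher, and genes of at least 100 CPM 28.4% and 28.0%. The differences were not tested. Snrpa1, Sf1, Snrpa, Cwc27 and Bud31 each share exon sequence with another gene.

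Of the core proteins of the exon junction complex, which marks spliced mRNA, 4 fell. Eif4a3, its RNA helicase, averaged 147 ± 5.38 CPM in shFam172a and 178 ± 5.04 CPM in shCtrl (-0.28 ± 0.034, adjusted p = 3.2e-08), Rbm8a, known as Y14, was at -0.25 ± 0.035, and the paralogs Magohb and Magoh were at -0.40 ± 0.079 and -0.24 ± 0.059. Casc3, also of the core, was at -0.0035 ± 0.037 and not called (adjusted p = 0.95), and Magoh and Casc3 were named after their values were seen. Of the 9 genes in that list 4 fell and 2 rose, and Pnn, a peripheral factor, was at 0.16 ± 0.035. RS-rich proteins and cyclin L gave 6 rises and 3 falls among 19, where 28.0% of genes of at least 100 CPM were higher. Rsrp1 averaged 175 ± 1.20 CPM in shFam172a and 124 ± 4.57 CPM in shCtrl (0.50 ± 0.034, adjusted p = 1.5e-14), the highest value in the 9 lists. Pnisr was at 0.23 ± 0.039, Scaf1 at 0.18 ± 0.041 and the speckle scaffold Son at 0.16 ± 0.027. Other RNA-binding regulators rose in 5 and fell in 5 of 23, with the paraspeckle protein Sfpq at 0.18 ± 0.028, Khsrp at -0.16 ± 0.032, Pcbp2 at -0.13 ± 0.029 and Ewsr1 at 0.12 ± 0.029. Nonsense-mediated decay genes rose in 2 and fell in 1 of 10, with the kinase Smg1 at 0.30 ± 0.030 (adjusted p = 2.6e-10), Upf2 at 0.18 ± 0.048 and Smg8 at -0.17 ± 0.065. The share lower was 44.4% in the exon junction complex list, 15.8% in RS-rich proteins, 21.7% in RNA-binding regulators and 10.0% in decay genes. The share higher was 22.2%, 31.6%, 21.7% and 20.0%, in the same order. Genes of 10 to 100 CPM had 21.6% lower and 17.6% higher, and genes of at least 100 CPM 28.4% and 28.0%. These differences were not tested. In all 9 lists 0 genes were called with at least a 1.5-fold difference. Magohb, Son, Sfpq, Khsrp, Pcbp2 and Ewsr1 share exon sequence with other genes.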

How the data were processed

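RNA of 6 Neuro2a samples was sequenced in paired ends on the NovaSeq platform after TRIzol extraction and the VAHTS Universal V6 kit, per the labels' protocols. The authors deposited whole-number counts of read pairs for each gene symbol, without normalization. The submitters' processing notes list HISAT2 2.0.5 and HTSeq with the build mm10. No source used here gives the annotation, the strand setting or any filter. Each sample's own table matched the joint table in all 6 libraries. Rows of the table that name no gene entered neither library sizes nor tests (17.4% of pairs in no gene in shFam172a and 16.5% in shCtrl, and, in the same order of groups, 10.3% and 9.64% with several alignments, 6.08% and 5.26% of too low quality, 1.80% and 1.81% ambiguous, 0.991% and 0.825% not aligned). filterByExpr (minimum count 10) kept 12820 of 18128 genes with a count. edgeR 4.0.16 in R 4.3.3 (TMM, glmQLFit with robust estimation, glmQLFTest, group as the sole term) gave two-sided p-values with Benjamini-Hochberg adjustment over all genes, and the SE is the log2 fold change over the square root of F. The test was checked on simulated counts. Alternatives used DESeq2 1.42.0, limma 3.58.1 with voom, other scalings and filters, thinning, a spline correction for GC and transcript length (99.5% of tested genes had both), a replicate block and each library left out. Symbols were matched to GENCODE M21 (GRCm38), 98.5% of 24421 and all 52 members. Promoters are from RefSeq, and those printed are of called members with a single entry and no exon of over 5 bases in the window, up to 3 of largest change in each direction. The members and the 9 lists were chosen with earlier results of these data known. Values in every library are given for TRA2, CLK, SRPK, U2AF and SF3 genes, for the 5 called SR and hnRNP genes of largest change in each direction and for the most abundant of each; of other lists, up to 4 called genes of smallest p are named. The remaining members are given by mean or fold change, and values of Hnrnpf in every library were added after they were seen.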

Additional observations from a re-analysis of the deposited data

How the results depend on the processing

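Of the 28 called members, 23 to 28 kept call and direction under each of 16 alternatives, with DESeq2 keeping 24 and the GC and length correction 26. Leaving out single libraries gave 6 to 8 members higher and 18 to 22 lower, and 3681 to 4320 genes called in all. DESeq2 called 3399 genes and ended the calls of Clk1, Sf3b6, Srpk2 and Srsf9. Thinning all libraries to 11250312 counts moved the median log2 fold change of the members to -0.037. After the GC and length correction the median was -0.053 over the members and -0.021 over all tested genes. The main fit had -0.057 and -0.00030, so the members lay closer to all genes after the correction. Replicate numbers did not pair the samples, since deviations of same-numbered libraries correlated at -0.0096 to -0.0038 over 12820 genes, and with a replicate block 7 members were higher, 20 lower and 4468 genes called; Srpk2 alone lost its call, at 0.089 with adjusted p = 0.067.

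Signs turned for members that were not called in either fit. Tra2b was at 0.0019 with DESeq2 size factors, 0.0047 without a filter, 0.0093 with at least 50 counts in every library, 0.0016 in DESeq2, 9.6e-05 with the replicate block, and 0.034 after the GC and length correction, with or without the block. After that correction, without and with the block, Hnrnpf was at 0.021 and 0.0201, Hnrnph3 at 0.023 and 0.025, Hnrnpk at 0.029 in both and Clk3 at -0.021 and -0.022. Hnrnph3 was at 0.13 after thinning, and Sf3b3 at 0.0029 with at least 50 counts. With single libraries left out, log2 fold changes ranged for Hnrnpa2b1 from -0.017 to 0.028, for Hnrnpf from -0.049 to 0.018, for Hnrnph3 from -0.065 to 0.035, for Sf3b3 from -0.029 to 0.013, for Clk2 from -0.20 to 0.046, for Tra2b from -0.024 to 0.029 and for U2af1l4 from -0.018 to 0.18. The cause of these turns was not tested. Depth limits Clk2, Hnrnph3, Srsf4, Hnrnpa1 and U2af1l4, whose SEs of 0.084 to 0.14 are above those of the abundant members.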

Other observations

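The following ratios of counts were formed after the values were seen, and no test was made of them. The ratio of Hnrnpdl to Hnrnpd, paralogs called in opposite directions, was 1.36, 1.42 and 1.48 in the shFam172a libraries and 1.19, 1.19 and 1.17 in the shCtrl libraries. Hnrnpll over Hnrnpl, paralogs that both fell, was 0.4604, 0.463 and 0.454 in shFam172a and 0.477, 0.499 and 0.482 in shCtrl, so the groups did not overlap in either pair. Clk1 over Clk4 was 1.26, 1.196 and 1.18 in shFam172a and 1.10, 1.19 and 1.21 in shCtrl, with the groups mixed, as were Tra2a over Tra2b at 0.913, 0.927 and 0.922 in shFam172a and 0.842, 0.864 and 0.934 in shCtrl.

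Split by transcript length into 3 equal parts of all tested genes, the members had 1 rise and 7 falls among 14 short ones (up to 2050 bases), 4 and 8 among 23 of middle length and 3 and 5 among 13 long ones (from 3610 bases). Their median log2 fold changes were -0.086, -0.069 and -0.0067, where all genes of the same length classes had -0.028, -0.013 and 0.034. The members' medians lay below those of all genes in each class, which was not tested. The shares of all genes called higher and lower were not computed per class, so the members' rises and falls per class have no matched background. Over all lengths these shares were 17.5% higher and 18.6% lower.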
